A study of Mus musculus with 12 samples.

Results

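The vacuolar H+-ATPase (V-ATPase) and the mTORC1 machinery at the lysosomal surface were followed as a set of 39 genes in mouse embryonic fibroblasts (MEFs) with and without the transcription factors TFEB and TFE3. The set was a list of gene symbols chosen by function: 6 genes of the membrane (V0) sector of the pump, 8 of its peripheral (V1) sector, 2 accessory proteins, 5 Ragulator subunits, 4 Rag GTPases, 3 genes of the folliculin complex, 4 of mTORC1, Rheb with Tsc1 and Tsc2, 3 GATOR1 subunits and the amino acid transporter Slc38a9. All 39 were among the 24421 genes of the count table, and 38 of them were among the 15220 genes that passed edgeR's expression filter. Atp6v0c was the exception. The experiment held 12 RNA-Seq libraries in 4 groups of 3: untreated Null MEFs, untreated TFEB/TFE3 DKO MEFs, and each line after 8 hr in 100 µM etoposide, an inhibitor of topoisomerase II that breaks DNA. Null is the labels' name for the control line, which the study's text calls wild type, and the DKO line had both genes inactivated by CRISPR editing. According to the paper its MEFs were immortalized with SV40, which it says can alter how stable p53 is, a transcription factor of the DNA damage response. Each genotype was represented by 1 line, so a difference between genotypes cannot be told apart from any other difference between these lines. The sample titles say Control, the treatment notes of the sample records say untreated, and the methods describe the controls as given DMSO. Nothing in the sources says that the 3 libraries of a group came from separate cultures, so p-values measure the spread between these samples, which may be technical.

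The V-ATPase is a rotary pump. Its V1 sector hydrolyses ATP in the cytosol and turns a rotor in the V0 sector, which carries protons into the lysosome and keeps it acidic. The pump also binds Ragulator, a scaffold on the lysosomal membrane that holds the Rag GTPases, and when amino acids are plentiful the Rag heterodimers (RagA or RagB with RagC or RagD) recruit mTORC1 to the lysosome, where Rheb activates its kinase. GATOR1 switches RagA and RagB off, the TSC complex switches Rheb off, and folliculin with its partners Fnip1 or Fnip2 acts on RagC and RagD. TFEB and TFE3 are substrates of mTORC1 held in the cytosol while it is active. In the nucleus they bind the motif known as the CLEAR element in many lysosomal genes, among them V-ATPase subunits, Rragd and Flcn.

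The libraries held 66956083 to 83970210 counts on genes in untreated Null, 66749645 to 104120871 in untreated DKO, 63286195 to 76125320 in etoposide-treated Null and 45577023 to 94388705 in etoposide-treated DKO MEFs. The TMM factors were 0.962 to 0.969 in untreated Null, 0.884 to 0.893 in untreated DKO, 1.08 to 1.09 in treated Null and 1.07 to 1.08 in treated DKO libraries. Levels are given as CPM (counts relative to a library size scaled by TMM), and differences as log2 fold changes with their standard error (SE). Adjusted p-values come from the quasi-likelihood test of edgeR over all 15220 genes, adjusted by Benjamini-Hochberg, with a threshold of 0.05, and interaction means the test of whether the etoposide response differed between DKO and Null MEFs. The targeted gene Tfeb was measured at 38.9, 39.2 and 42.1 CPM in untreated Null and 4.60, 6.09 and 4.68 CPM in untreated DKO libraries. With etoposide it was at 11.4, 10.2 and 10.4 CPM in Null and 1.92, 1.61 and 2.20 CPM in DKO libraries, so every DKO library lay below every Null library of its treatment. Tfe3 RNA was still present in DKO MEFs, at 115, 109.9 and 114 CPM in untreated Null and 94.1, 93.1 and 91.0 CPM in untreated DKO libraries. The lines did not overlap there, but they did after etoposide, at 68.5, 69.6 and 68.1 CPM in Null and 70.7, 71.2 and 63.4 CPM in DKO libraries. An edit that inactivates a gene need not remove its RNA.

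The fibroblast identity of the cells was checked with 8 marker genes. Their sum was 7063 to 7169.8 CPM per untreated Null library and 11339 to 11916 CPM per untreated DKO library, with Vim, a filament protein of fibroblasts, the most abundant in Null libraries. With etoposide the sum was 3947 to 4041 CPM in Null and 4963 to 5290.3 CPM in DKO libraries, and all 8 markers fell in Null and 7 in DKO MEFs. Of all genes 37.2% fell in Null and 31.5% in DKO MEFs. With library size scaling 7 markers fell and 1 rose in DKO MEFs. Without etoposide 7 of the 8 (6 with library size scaling) were higher in DKO MEFs, beside 33.3% of all genes. Thy1, a surface protein of many fibroblasts, was lower, at 4.50, 4.10 and 4.03 CPM in untreated Null and 0.0602, 0.0326 and 0.0168 CPM in untreated DKO libraries. After etoposide 6 markers were higher, beside 37.5% of all genes. Vim was lower too, at 1609, 1643 and 1643 CPM in Null and 807, 790.1 and 807 CPM in DKO libraries. Markers of blood cells, macrophages and osteoclasts, 6 genes of which 5 were tested, summed to 1.68 to 1.95 CPM per untreated Null library and to 13.1 to 14.3 CPM after etoposide, and in DKO MEFs to 1.73 to 2.83 and 3.64 to 4.67 CPM. Cd68, itself a lysosomal protein, made up most of this sum, and the macrophage marker Adgre1 was at 0 in 8 of the 12 libraries. The 4 epithelial markers summed to at most 5.92 CPM in any library, and the 3 endothelial markers to at most 1.39 CPM. Without etoposide 1 epithelial marker was higher and 2 lower in DKO MEFs, beside 33.3% and 33.4% of all genes. Krt8, the higher one, was at 1.29, 1.43 and 1.76 CPM in untreated Null and 4.26, 4.03 and 5.45 CPM in untreated DKO libraries. After etoposide 0 were higher and 2 lower (37.5% and 36.6% of all genes). At these low levels all 3 endothelial markers rose with etoposide in both lines, with a median log2 fold change of 3.74 in Null and 3.65 in DKO MEFs. Of the blood markers 5 rose in Null and 3 in DKO MEFs, beside 42.3% and 43.7% of all genes. The part of these markers in the results was not tested. In bulk RNA, fewer cells of a kind and less RNA per cell cannot be told apart.

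Divided by the summed exon length of each gene, the highest level in untreated Null MEFs was that of Atp6v1g1, the G subunit of the stator, at 128 ± 1.34 CPM per kb (SD, n = 3). Atp6v1f, a rotor subunit, followed at 68.2 ± 2.49 CPM per kb, then Lamtor5 of Ragulator at 56.6 ± 2.14 CPM per kb and the accessory protein Atp6ap1 at 50.9 ± 1.23 CPM per kb. The lowest of the members tested were Rragb (0.875 ± 0.0509 CPM per kb), Rragd (0.782 ± 0.0475 CPM per kb) and Slc38a9 (0.370 ± 0.0300 CPM per kb). With the length of the longest transcript in place of the exon sum, Atp6v1g1 and Atp6v1f again had the highest levels and Rragb, Rragd and Slc38a9 the lowest. Atp6v0c encodes the proteolipid that forms most of the rotor ring, and it was listed at 0 to 9 counts in each library (2, 6 and 6 counts in untreated Null and 0, 9 and 1 counts in untreated DKO libraries). It has near-identical pseudogenes and the authors kept pairs with a unique alignment, so its value is uncertain, the cause was not tested, and no difference is given for it.

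Between the lines members differed in both directions. Without etoposide, the accessory subunits of the V-ATPase, the V1 subunits Atp6v1d, Atp6v1e1, Atp6v1g1 and Atp6v1h, the folliculin partners Fnip1 and Fnip2, Rragb, Rragc and Rheb were higher in DKO MEFs, whereas the V1 subunits Atp6v1a and Atp6v1c1, the mTORC1 subunits Mtor, Rptor and Mlst8, the inhibitors Tsc1 and Tsc2, Rragd, Rraga and Slc38a9 were lower. Against a background of 10157 genes called of 15220 (66.7%), with 33.3% higher and 33.4% lower in DKO MEFs, 16 of the 38 tested members were higher and 13 lower. Of the 15 tested V-ATPase genes (V0, V1 and accessory) 8 were higher and 2 lower, and of the other 23 members 8 and 11. The median log2 fold change of the members was 0.10 beside -0.024 over all genes. After etoposide the background was 11270 genes (74%), 37.5% higher and 36.6% lower, and 23 members were higher and 9 lower (9 and 4 of the V-ATPase genes, 14 and 5 of the others), with a median of 0.25 beside -0.0045 over all genes. With DESeq2's size factors in edgeR the treated background turned to 5072 genes higher and 6096 lower, and the members to 19 and 10. Scaling by library size alone moved the median of all genes by -0.12 without etoposide and gave 13 members higher and 17 lower. Relative to all genes the V-ATPase median was 0.19 with TMM and 0.18 with library size.

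**Figure D1:**
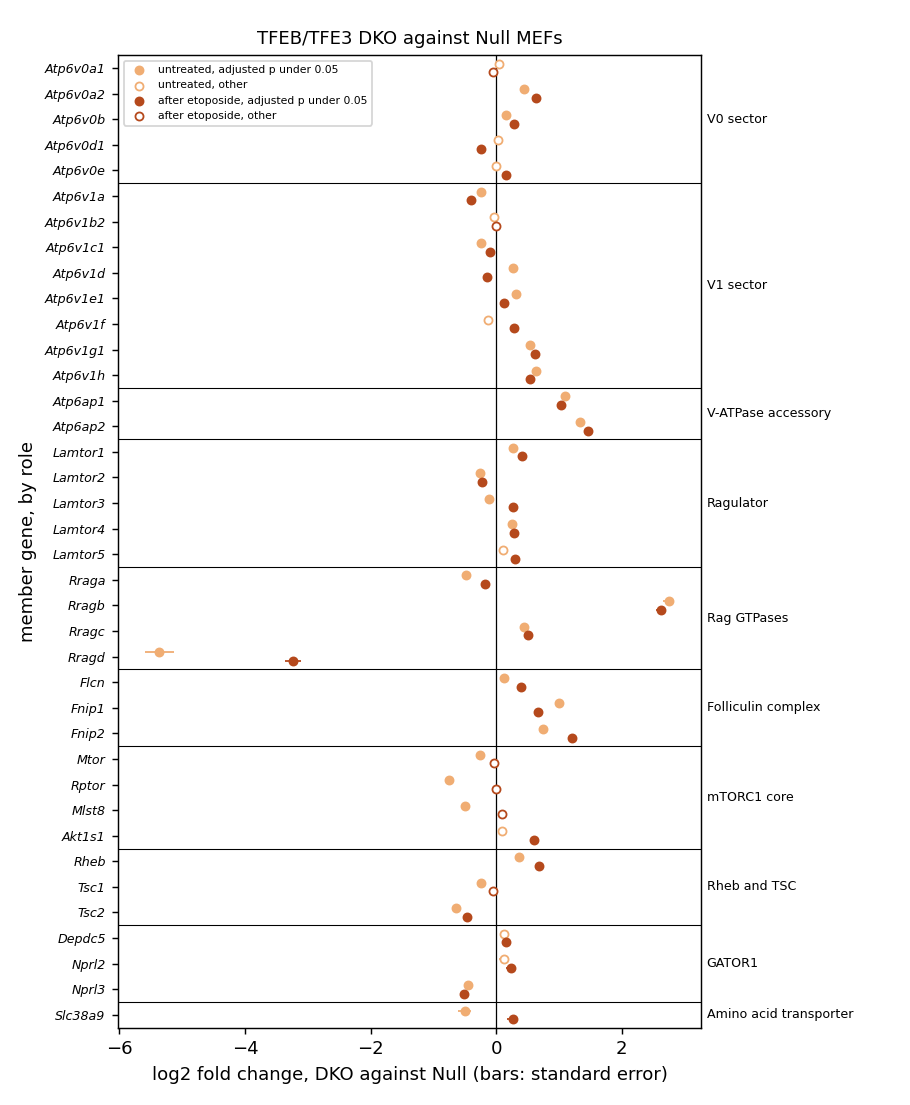
Log2 fold change of each of the 38 tested members between DKO and Null MEFs (horizontal axis), by role (vertical axis), untreated in pale orange and after etoposide in dark orange. Bars are SE and filled points have an adjusted p under 0.05. Rragb lies at 2.75 and 2.62 and Rragd at -5.37 and -3.24, Atp6ap1 and Atp6ap2 lie between 1.04 and 1.46, and Rptor moves from -0.75 to -0.0053.

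With etoposide, Fnip2, Rptor, Rheb, Mtor and Atp6v0a1 fell in Null MEFs, and Rragd, Rragb, Tsc1 and Atp6v1e1 rose. It changed 12091 genes there (79.4%), 42.3% upwards and 37.2% downwards, and among the members 9 rose and 16 fell, with a median log2 fold change of -0.027 beside 0.066 over all genes. Of the 15 V-ATPase genes 2 rose and 5 fell, and of the other 23 members 7 rose and 11 fell. In DKO MEFs it changed 11435 genes (75.1%), 43.7% upwards and 31.5% downwards, and 15 members rose and 12 fell (4 and 6 of the V-ATPase genes, 11 and 6 of the others), with a median of 0.029 beside 0.14 over all genes. Rragd, Slc38a9, Tsc1, Rragb and Mlst8 rose most in that line, and Fnip2, Atp6v0a1 and Rheb fell most. The etoposide comparisons of the 2 lines do not share libraries, but each shares libraries with the comparisons between the lines.

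The direction of the smaller etoposide changes depended on the scaling. Library size alone in place of TMM moved the median of all genes by 0.17 in Null and by 0.27 in DKO MEFs, and the members then counted 18 up and 10 down in Null and 27 up and 4 down in DKO MEFs. Among the called members, the falls of Atp6v1c1, Lamtor1, Rraga and Rragc in Null MEFs and of Atp6v0a2, Atp6v0d1 and Atp6v1g1 in DKO MEFs turned to values above 0, and those of Atp6v1a and Atp6v1g1 in Null and of Atp6v1d, Depdc5, Lamtor4, Mtor and Rptor in DKO MEFs lost their calls. The call of Atp6v1c1 in Null MEFs was also lost without Null control replicate 1 (-0.088) or Null etoposide replicate 2 (-0.092), and that of Rraga without Null control replicate 1 (-0.12), Null control replicate 2 (-0.14) or Null etoposide replicate 3 (-0.11). Relative to all genes, the median of the V-ATPase genes in Null MEFs was -0.042 under TMM and under library size (-0.12 to -0.022 without 1 library), and that of the other members -0.14 under each. The stricter filter, which keeps genes with a mean of 1 CPM or more, also altered the TMM factors and gave 16 members up and 12 down in Null MEFs. Of the 12026 genes tested in that fit, 5005 rose and 4850 fell. The V-ATPase median relative to all genes was then 0.098 in Null and 0.0031 in DKO MEFs, above 0, where it had been -0.11 in DKO MEFs with the usual filter. For the other members it was -0.0020 in Null, still below 0, and 0.0041 in DKO MEFs, beside -0.11 with the usual filter.

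The interaction lay mostly above 0 for the mTORC1 machinery and on both sides of 0 for the pump. Over all genes tested 8226 (54%) had an interaction past the threshold, 29.6% above and 24.4% below 0. Of the 38 members 19 lay above and 5 below 0, with a median of 0.13 beside 0.047 over all genes. Among the 15 V-ATPase genes the counts were 4 above and 4 below, and among the other 23 members 15 above and 1 below, the latter being Fnip1. Each of the 4 mTORC1 subunits in the set lay above 0 and past the threshold, as did Rheb and Tsc1. Library size scaling moved the median of all genes by 0.10 and gave 24 members above and 3 below 0, while DESeq2's size factors in edgeR gave 13 and 7 and turned the background to 3796 genes above and 4192 below 0, with Tsc1 (0.13) among the calls lost.

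**Figure D2:**
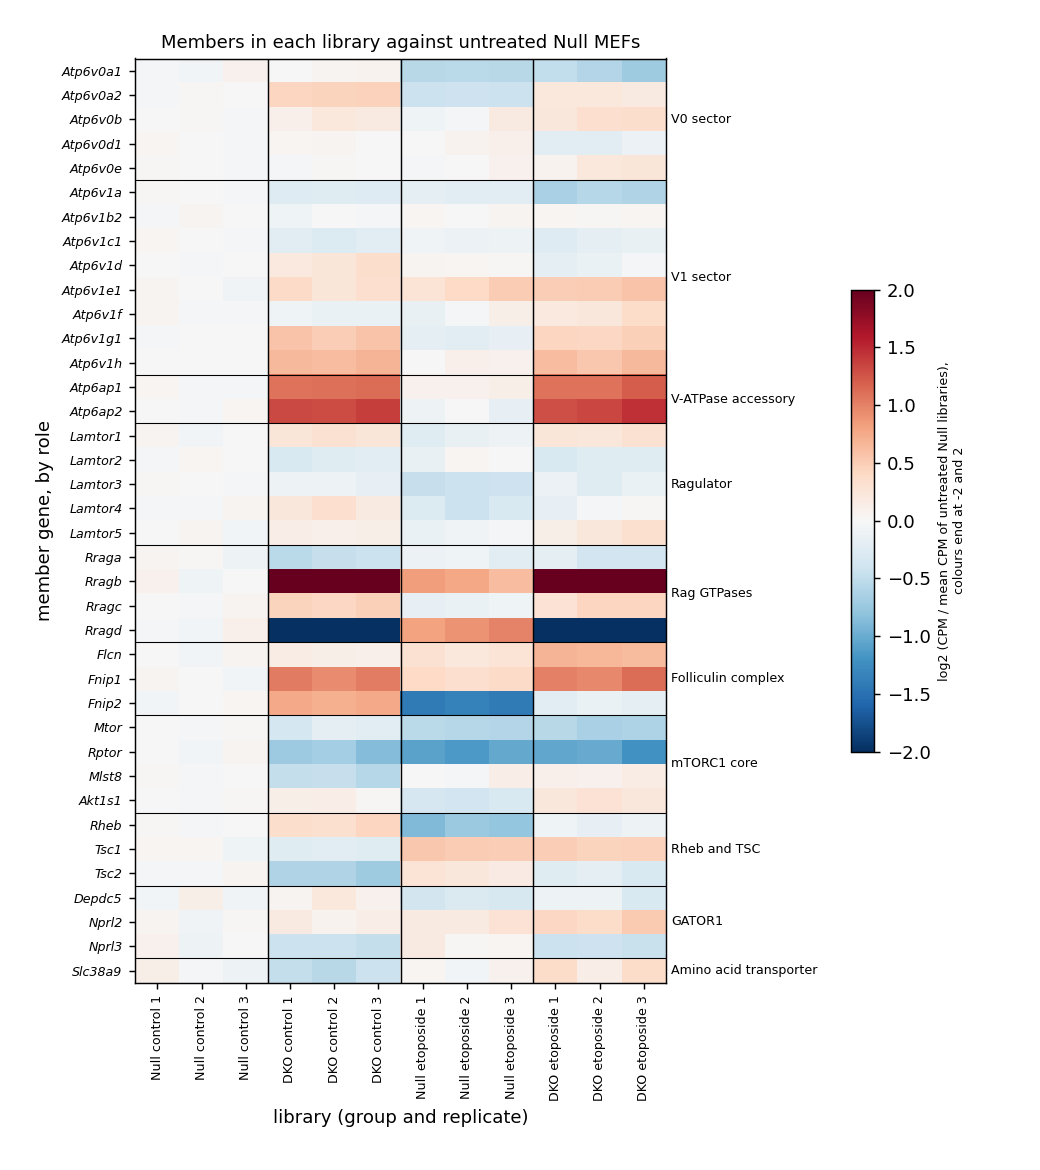
Level of each tested member (vertical axis, by role) in each of the 12 libraries (horizontal axis), as the log2 ratio of its CPM to the mean CPM of the 3 untreated Null libraries, red for higher and blue for lower. The 3 libraries of each group look alike, Rragb, Atp6ap1 and Atp6ap2 are red in all 6 DKO libraries, Rragd is blue in them, and Fnip2 and Rheb turn blue with etoposide in Null MEFs.

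In the V0 sector, none of the 5 members tested differed between the lines by as much as the accessory subunits did. Atp6v0a2, an isoform of the large a subunit (its exons share 9.86% of their length with an antisense gene), was higher in DKO MEFs by 0.44 without and 0.63 with etoposide on the log2 scale. Atp6v0b, another proteolipid of the ring (11.8% of its exon length is shared with an antisense gene), was higher by 0.16 and 0.28. The former call was lost with library size scaling (0.042) and without Null control replicate 1 (0.16), Null control replicate 3 (0.15), DKO control replicate 2 (0.13) or DKO control replicate 3 (0.16). Atp6v0e, the small e subunit, was at -0.0041 without and 0.15 with etoposide, and the latter call was lost without DKO etoposide replicate 3 (0.10). Atp6v0a1, the isoform of the a subunit found in neurons and many other cells, was at 38.7, 38.3 and 41.8 CPM in untreated Null and 40.0, 41.1 and 41.6 CPM in untreated DKO libraries. With etoposide the levels were 26.9, 27.4 and 27.1 CPM in Null and 28.2, 26.3 and 24.2 CPM in DKO libraries. The lines overlapped under both treatments, while every etoposide library lay below every untreated library of its line, with log2 fold changes of -0.55 (SE 0.053, adjusted p = 4.17e-08) in Null and -0.65 (SE 0.054, adjusted p = 6.41e-09) in DKO MEFs by edgeR's quasi-likelihood test, Benjamini-Hochberg adjusted. Atp6v0a2 fell by 0.43 on the log2 scale in Null MEFs, and its DKO value was -0.24 with TMM but 0.031 with library size scaling. Atp6v0d1, which joins the rotor ring to the central shaft, was at 71.3, 68.8 and 67.4 CPM in untreated Null and 71.0, 71.9 and 68.5 CPM in untreated DKO libraries and at 69.1, 72.5 and 74.6 CPM in etoposide-treated Null libraries, 3 groups that overlapped. In etoposide-treated DKO libraries it was lower than in every other library under TMM scaling, at 59.4, 60.0 and 63.5 CPM. Its etoposide value in DKO MEFs, -0.21, turned to 0.065 with library size scaling. The interaction was -0.27 (SE 0.058, adjusted p = 0.000804) by the same edgeR test.

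In the V1 sector, Atp6v1g1 and Atp6v1h were higher in DKO MEFs. The former is a part of the stator that holds the catalytic head in place, and the latter a regulatory subunit that joins the sectors. Atp6v1h was at 63.0, 63.9 and 63.6 CPM in untreated Null and 99.4, 97.0 and 101 CPM in untreated DKO libraries, with no overlap and a log2 fold change of 0.64, and after etoposide of 0.54. For Atp6v1g1 the log2 fold changes were 0.54 and 0.62. Atp6v1a, the catalytic subunit that binds and hydrolyses ATP, went the other way. Its levels were 165, 163 and 161 CPM in untreated Null and 137, 138 and 137 CPM in untreated DKO libraries. Etoposide-treated libraries were at 142, 141 and 139.6 CPM in Null and 104, 109 and 108 CPM in DKO libraries. The treated DKO libraries were below all others, and the difference between the lines was -0.25 without and -0.40 (SE 0.031, adjusted p = 2.42e-09) with etoposide by edgeR, Benjamini-Hochberg adjusted. Its fall with etoposide in Null MEFs, -0.21, lost its call with library size scaling (-0.041), and so did its interaction (-0.15 with TMM, -0.044 with library size). Its partner in the catalytic head, Atp6v1b2, was past the threshold in none of the 5 comparisons, with log2 fold changes between -0.040 and 0.072, although library size scaling gave a call in 4 of them. Atp6v1c1, which can tie the stator to the V0 sector, was lower in DKO MEFs at -0.23 without etoposide and -0.096 with it, the latter lost without Null etoposide replicate 1 (-0.088) or DKO etoposide replicate 1 (-0.084).

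The stalk subunits of V1 responded to etoposide in different directions. Atp6v1e1, of the stator, was at 72.1, 69.8 and 66.4 CPM in untreated and 83.7, 91.5 and 98.8 CPM in etoposide-treated Null libraries. In DKO libraries it was at 90.1, 82.0 and 87.4 CPM without and 98.0, 98.2 and 103 CPM with etoposide. The treated libraries were higher than the untreated ones in both lines without overlap, with log2 fold changes of 0.39 (SE 0.054, adjusted p = 3.13e-06) in Null and 0.21 in DKO MEFs by the same edgeR test. The interaction of -0.19 had an adjusted p of 0.0478 in the edgeR test, and its call was lost with library size scaling (-0.080), with a replicate block (-0.19) or without Null control replicate 2 (-0.18), Null control replicate 3 (-0.15), DKO control replicate 1 (-0.17), DKO control replicate 3 (-0.17), Null etoposide replicate 2 (-0.19), Null etoposide replicate 3 (-0.12), DKO etoposide replicate 1 (-0.19) or DKO etoposide replicate 2 (-0.19). Atp6v1d, the rotor shaft, was at 28.9, 28.1 and 28.9 CPM in untreated and 29.8, 29.3 and 29.1 CPM in treated Null libraries. In DKO libraries it was at 32.8, 33.9 and 36.6 CPM without and 24.9, 26.2 and 28.0 CPM with etoposide. DKO libraries were above Null libraries before etoposide and below them after it, and the interaction was -0.42 (SE 0.073, adjusted p = 0.000103) by edgeR. With library size scaling the DKO value was -0.11 and not past the threshold. Atp6v1f, the other rotor subunit, rose in DKO MEFs by 0.39 beside -0.018 in Null MEFs, where library size scaling gave 0.15, and its interaction was 0.41 (SE 0.083, adjusted p = 0.000478) by edgeR.

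Among the 15 V-ATPase members tested, the accessory subunits showed the largest differences between the lines. Atp6ap1 (also Ac45) and Atp6ap2 (also the prorenin receptor) assist assembly of the V0 sector and stay bound to the pump. Atp6ap1 was at 158, 151 and 152 CPM in untreated Null and 327, 330.1 and 334 CPM in untreated DKO libraries. After etoposide it was at 163, 164 and 167 CPM in Null and 328, 328 and 357 CPM in DKO libraries. Every DKO library was above every Null library, with log2 fold changes of 1.10 (SE 0.036, adjusted p = 2.07e-14) without and 1.04 (SE 0.036, adjusted p = 4.33e-14) with etoposide by edgeR's quasi-likelihood test, Benjamini-Hochberg adjusted. For Atp6ap2 the levels were 64.2, 63.9 and 66.5 CPM in untreated Null and 163, 159.6 and 169 CPM in untreated DKO libraries. They were 60.3, 64.3 and 57.6 CPM in Null and 158, 164 and 179 CPM in DKO libraries with etoposide. Again no DKO library overlapped with a Null library, and the log2 fold changes between the lines were 1.34 and 1.46. Atp6ap2 did not pass the threshold for etoposide, with -0.093 in Null and 0.028 in DKO MEFs, while library size scaling called the latter (0.30). The Null value passed it without Null etoposide replicate 2 (-0.14) or DKO etoposide replicate 3 (-0.096). Atp6ap1 rose in Null MEFs by 0.097 on the log2 scale, a call lost without Null control replicate 2 (0.075), Null control replicate 3 (0.077) or Null etoposide replicate 3 (0.077).

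**Figure D3:**
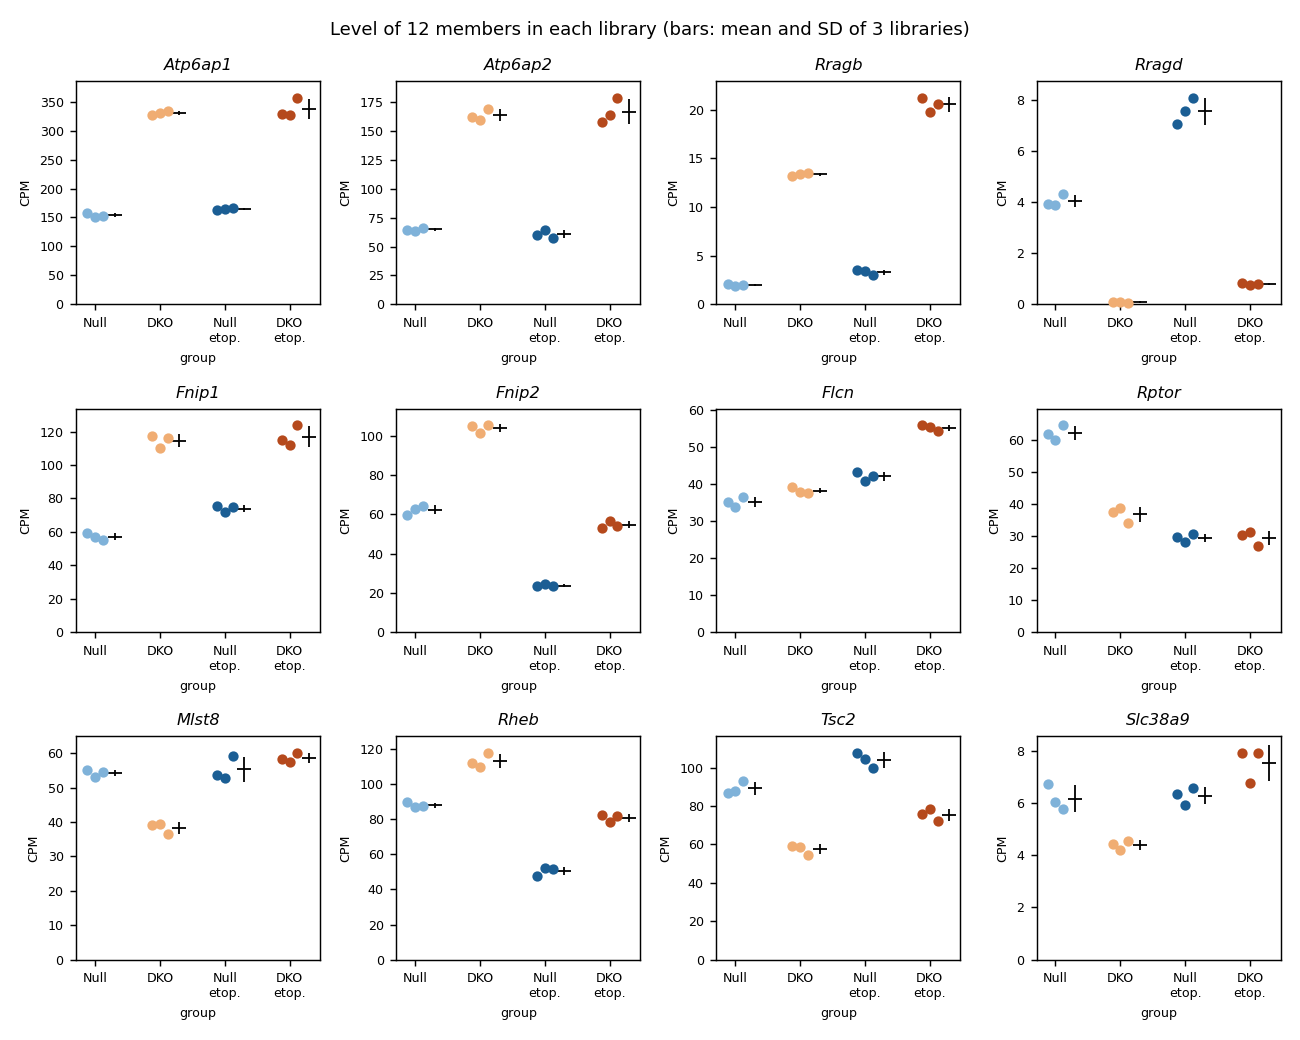
Level in CPM (vertical axes, each starting at 0) of 12 members in the 12 libraries by group (horizontal axes). Each point is a library, and the cross beside it gives the mean and SD of the 3 libraries, with DKO points apart from Null points for Atp6ap1, Atp6ap2, Rragb, Rragd, Fnip1, Fnip2, Rheb and Tsc2 under both treatments, and overlapping for Rptor after etoposide.

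Atp6ap1, Atp6ap2 and Rragb share a position that the choice of members did not use. They are the only members on the X chromosome, at 74297097 to 74304721, 12587801 to 12617049 and 153139981 to 153171943 in GENCODE M21 on GRCm38, and all 3 were higher in DKO MEFs. Of the X-linked genes tested, 62.7% were higher without and 64.1% with etoposide, beside 32.3% and 36.6% of autosomal genes. Over the 451 X-linked genes tested, the median log2 fold change between the lines was 0.44 without and 0.50 with etoposide, above that of every autosome. Over 14156 autosomal genes the medians were -0.034 and -0.016. Autosomes differed too, from -0.41 for chromosome 15 and -0.35 for chromosome 19 to 0.30 for chromosome 1, which carries Atp6v1h as its only member. Relative to the median of their chromosome, a measure chosen after these values were seen, the untreated differences were 0.66 for Atp6ap1, 0.90 for Atp6ap2, 2.31 for Rragb, 0.34 for Atp6v1h and 1.09 for Fnip1 on chromosome 11. Over the 38 members this difference was above 0 for 24 without and 27 with etoposide. Among the members called lower in untreated DKO MEFs it was above 0 for Atp6v1c1 (0.17), Lamtor3 (0.14) and Lamtor2 (0.013). It was below 0 for the others called lower. The part of the chromosome in the difference between these lines was not tested.

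**Figure D4:**
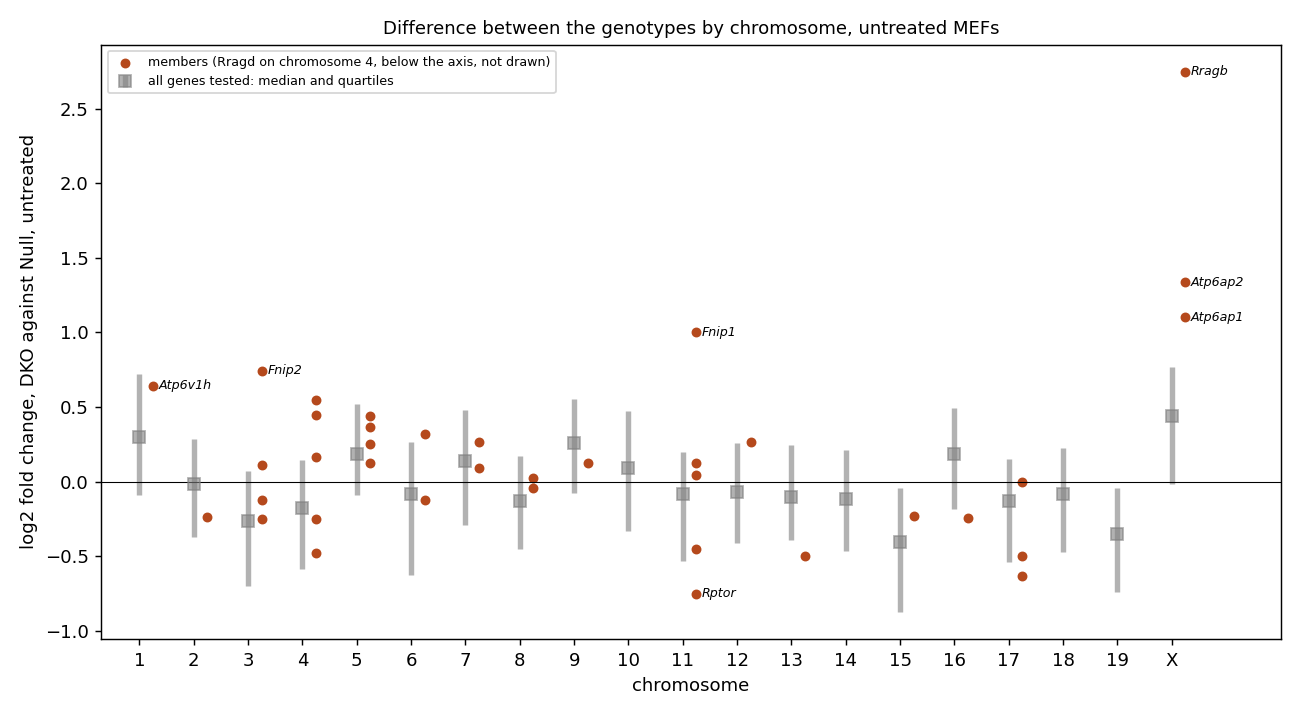
Log2 fold change between untreated DKO and Null MEFs (vertical axis) by chromosome (horizontal axis), with the median and quartiles of all genes tested in grey and the members as points. The X chromosome has the highest median, 0.44, and its 3 members lie above its upper quartile of 0.77, while Rragd at -5.37 lies outside the range drawn.

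Among the Rag GTPases the paralogues diverged. Rragd (chromosome 4, 32983037 to 33022180), which encodes RagD, was at 3.93, 3.87 and 4.32 CPM in untreated Null and 0.105, 0.109 and 0.0671 CPM in untreated DKO libraries, the latter from 7, 10 and 4 counts. With etoposide it was at 7.03, 7.54 and 8.08 CPM in Null and 0.830, 0.751 and 0.814 CPM in DKO libraries, the latter from 41, 55 and 82 counts. Every DKO library lay below every Null library, with log2 fold changes of -5.37 (SE 0.23, adjusted p = 7.53e-13) without and -3.24 (SE 0.13, adjusted p = 2.37e-13) with etoposide by edgeR's quasi-likelihood test, Benjamini-Hochberg adjusted. Rragd rose with etoposide in both lines, by 0.90 in Null and 3.03 in DKO MEFs. The interaction was 2.13 (SE 0.37, adjusted p = 0.000110) by edgeR, and it starts from the few counts of the untreated DKO libraries. RagC, of the same class as RagD and encoded by Rragc (7.9% of its exon length is shared with a gene on the opposite strand), was higher in DKO MEFs by 0.45 and 0.51 on the log2 scale. Per kb of exon, Rragd made up 2.81 ± 0.0828% of the sum of Rragc and Rragd in untreated Null MEFs (SD, n = 3), 5.56 ± 0.225% in treated Null, 0.0494 ± 0.0130% in untreated DKO and 0.439 ± 0.0435% in treated DKO MEFs.

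Rragb, which encodes RagB, was higher in DKO MEFs by more than any other of the 38 members tested. It was at 2.09, 1.86 and 1.98 CPM in untreated Null and 13.2, 13.4 and 13.5 CPM in untreated DKO libraries. Treated libraries were at 3.53, 3.39 and 3.02 CPM in Null and 21.2, 19.7 and 20.6 CPM in DKO libraries. Neither the lines nor the treatments overlapped, and the log2 fold change between the lines was 2.75 (SE 0.086, adjusted p = 1.1e-14) without and 2.62 with etoposide by the same edgeR test. Etoposide raised Rragb by 0.75 in Null and 0.62 in DKO MEFs, with an interaction of -0.13 that was not past the threshold (adjusted p = 0.415 by edgeR). Rraga, which encodes the closely related RagA, was lower in DKO MEFs, at -0.48 without etoposide and -0.18 after it, where libraries overlapped. Its etoposide values were -0.14 in Null MEFs, a call lost without Null control replicate 1 (-0.12), Null control replicate 2 (-0.14) or Null etoposide replicate 3 (-0.11) and 0.026 with library size scaling, and 0.16 in DKO MEFs, a call lost without DKO control replicate 1 (0.10), DKO control replicate 2 (0.13) or DKO etoposide replicate 1 (0.078). The share of Rragb in the sum of Rraga and Rragb per kb was 2.87 ± 0.205% in untreated Null and 21.8 ± 0.494% in untreated DKO MEFs (SD, n = 3 each), and it was 5.17 ± 0.223% in Null and 27.6 ± 1.09% in DKO MEFs after etoposide.

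Every gene of the folliculin complex was higher in DKO MEFs under both treatments, although library size scaling gave untreated Flcn 0.0018. Of all genes 33.3% were higher without and 37.5% with etoposide. Fnip1 was at 59.4, 57.0 and 55.1 CPM in untreated Null and 117, 110.3 and 116 CPM in untreated DKO libraries. Its levels with etoposide were 75.4, 71.8 and 74.7 CPM in Null and 115, 112 and 124 CPM in DKO libraries. The lines did not overlap, with log2 fold changes of 1.00 (SE 0.044, adjusted p = 1.3e-12) without and 0.66 with etoposide by edgeR, Benjamini-Hochberg adjusted. Etoposide raised Fnip1 in Null MEFs by 0.37 beside 0.029 in DKO MEFs, an interaction of -0.34 (SE 0.062, adjusted p = 0.000150) by edgeR. Fnip2, its paralogue, was at 59.8, 62.8 and 64.3 CPM in untreated Null and 105, 102 and 106 CPM in untreated DKO libraries. It fell with etoposide to 23.5, 24.3 and 23.3 CPM in Null and 53.0, 56.5 and 54.3 CPM in DKO libraries. This was the largest fall among the members in both lines, -1.39 (SE 0.042, adjusted p = 3.11e-15) in Null and -0.93 (SE 0.039, adjusted p = 5.74e-13) in DKO MEFs by the same edgeR test, and the interaction was 0.46. Fnip2 made up 48.1 ± 1.86% of the sum of Fnip1 and Fnip2 per kb in untreated Null MEFs and 21.4 ± 0.830% after etoposide (SD, n = 3 each), and 43.6 ± 0.337% and 28.5 ± 1.49% in DKO MEFs. Flcn, which encodes folliculin, was at 35.3, 33.7 and 36.5 CPM in untreated Null and 39.1, 38.0 and 37.7 CPM in untreated DKO libraries, with no overlap. The difference of 0.12 was not past the threshold without Null control replicate 2 (0.097) or DKO control replicate 1 (0.10). After etoposide Flcn was at 43.3, 40.8 and 42.3 CPM in Null and 56.0, 55.6 and 54.4 CPM in DKO libraries, and treated libraries were above untreated ones in both lines. The rise was 0.26 (SE 0.042, adjusted p = 1.84e-05) in Null and 0.53 (SE 0.041, adjusted p = 2.69e-09) in DKO MEFs by edgeR, and the interaction was 0.27 (SE 0.058, adjusted p = 0.000826).

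The promoter windows of the members were searched for the E-box CACGTG on both strands, and for the longer forms TCACGTG and TCACGTGA that contain it and resemble the CLEAR element. RefSeq windows on GRCm38.p6, from 250 bases before to 50 after the start, were found for 33 of the 39 members, and not for Atp6v0a2, Atp6v1b2, Atp6v1c1, Atp6v1g1, Atp6v1h and Lamtor3. CACGTG was in the windows of 10 members, Atp6v0b, Atp6v0d1, Atp6v0e, Atp6v1a, Lamtor1, Lamtor4, Rragb, Rragc, Fnip1 and Rheb, and in 7.15% of all 32851 windows in the table, or in those of 8.09% of its 27025 genes. TCACGTG was in the windows of the same 10 members and in 3.77% of all windows (4.29% of genes), and TCACGTGA in those of 3 members (Atp6v0d1, Atp6v0e and Atp6v1a) and 0.974% of all windows (1.12% of genes). CACGTG was not in the windows of Rragd and Flcn. A match describes the letters and says nothing of binding. Stretches before the start are shown for Rragb and Fnip1, which had the largest log2 fold changes of the 10 in untreated DKO MEFs, for Rheb and Lamtor4, which were higher too (Lamtor4 at 0.13 and without a call with library size scaling), and for Atp6v1a, which was lower. Capitals mark TCACGTG on either strand. A further match in the Rragb window lies across the start, from base -3 to base 4, outside the stretch shown. The stretches are chrX:153139806-153139952 (plus strand), chr11:54438079-54438134 (plus strand), chr5:24842427-24842482 (minus strand), chr5:138255337-138255408 (plus strand) and chr16:44139360-44139415 (minus strand) in GRCm38.p6, each written 5′ to 3′ on the strand of its gene.
Rragb: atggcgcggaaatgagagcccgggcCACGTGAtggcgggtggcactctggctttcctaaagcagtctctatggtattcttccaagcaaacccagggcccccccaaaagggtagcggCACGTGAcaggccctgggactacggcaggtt
Fnip1: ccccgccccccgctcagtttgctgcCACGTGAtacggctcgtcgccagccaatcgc
Rheb: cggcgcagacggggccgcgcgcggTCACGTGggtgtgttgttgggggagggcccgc
Lamtor4: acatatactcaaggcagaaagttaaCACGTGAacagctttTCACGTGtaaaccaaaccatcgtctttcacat
Atp6v1a: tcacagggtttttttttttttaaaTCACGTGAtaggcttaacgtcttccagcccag

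Ragulator subunits differed by small amounts. Lamtor1, which anchors the scaffold in the membrane (18.7% of its exon length is shared with Lrrc51 on the opposite strand), was higher in DKO MEFs by 0.27 and 0.41 on the log2 scale, without and with etoposide. Lamtor4, which with Lamtor5 forms a pair inside the scaffold, was higher by 0.25 and 0.29, the former without a call under library size scaling (0.13). Lamtor5 differed by 0.30 after etoposide, and its untreated difference of 0.11 lay at an edgeR adjusted p of 0.0506 and passed the threshold without Null control replicate 2 (0.14), Null etoposide replicate 3 (0.11), DKO etoposide replicate 1 (0.11) or DKO etoposide replicate 3 (0.11). Lamtor2, which pairs with Lamtor3, was lower in DKO MEFs, at -0.25 and -0.22. Lamtor3 and Lamtor4 fell with etoposide in Null MEFs, with log2 fold changes of -0.44 and -0.33. In DKO MEFs the values were -0.043 and -0.30, or 0.23 and -0.026 with library size scaling. The interaction of Lamtor3 was 0.39 (SE 0.060, adjusted p = 2.68e-05) in the edgeR test. Its untreated difference between the lines, -0.12, was not past the threshold without Null control replicate 1 (-0.11) or DKO control replicate 3 (-0.10), and it was 0.27 after etoposide.

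Of the subunits of mTORC1 itself, Rptor, Mtor and Mlst8 were lower in DKO MEFs before etoposide, and none of them passed the threshold after it. Rptor (chromosome 11, 119602905 to 119899576) encodes raptor, which binds the Rag heterodimer and the substrates. It was at 62.0, 60.2 and 64.7 CPM in untreated Null and 37.6, 38.8 and 34.3 CPM in untreated DKO libraries. With etoposide the levels were 29.7, 28.0 and 30.7 CPM in Null and 30.3, 31.1 and 26.9 CPM in DKO libraries. The lines did not overlap before treatment, a log2 fold change of -0.75 (SE 0.058, adjusted p = 2.95e-09) by edgeR's quasi-likelihood test, Benjamini-Hochberg adjusted, and overlapped after it (-0.0053). The etoposide response was -1.08 in Null and -0.33 in DKO MEFs, where library size scaling gave -0.059 and no call, and the interaction was 0.75 (SE 0.084, adjusted p = 7.98e-07) by edgeR. Mtor, the kinase, was at 64.8, 64.4 and 66.7 CPM in untreated Null and 51.0, 56.9 and 56.3 CPM in untreated DKO libraries. Its levels after etoposide, 44.9, 43.8 and 43.3 CPM in Null and 44.7, 41.7 and 42.7 CPM in DKO libraries, were lower than before in every library, and the lines overlapped. The difference between the lines was -0.25 without and -0.034 with etoposide. The etoposide response was -0.57 (SE 0.045, adjusted p = 2.12e-09) in Null and -0.35 in DKO MEFs by edgeR, the latter -0.076 and without a call under library size scaling.

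Mlst8, a stabilizing subunit whose exons share 22.5% of their length with Bricd5 on the opposite strand, was at 55.0, 53.2 and 54.4 CPM in untreated Null and 39.1, 39.4 and 36.4 CPM in untreated DKO libraries. Etoposide-treated libraries were at 53.8, 52.7 and 59.3 CPM in Null and 58.2, 57.5 and 60.1 CPM in DKO libraries, and here the lines overlapped. The difference between the lines was -0.50 before treatment and 0.086 after it, where it passed the threshold without Null etoposide replicate 3 (0.14). Mlst8 rose in DKO MEFs by 0.61 beside 0.027 in Null MEFs, an interaction of 0.59 (SE 0.066, adjusted p = 8.47e-07) by edgeR. Akt1s1, which encodes the inhibitory subunit PRAS40, fell by 0.34 on the log2 scale in Null MEFs and rose by 0.16 in DKO MEFs. It was higher in DKO MEFs by 0.60 after etoposide, beside 0.090 before it, which passed the threshold without DKO control replicate 3 (0.12) or Null etoposide replicate 3 (0.092). The interactions of the 4 subunits in the set, between 0.22 and 0.75, were above 0 and past the threshold. So were those of 29.6% of all genes. Deptor, an inhibitory partner of mTOR outside the set, had an interaction of -0.63.

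**Figure D5:**
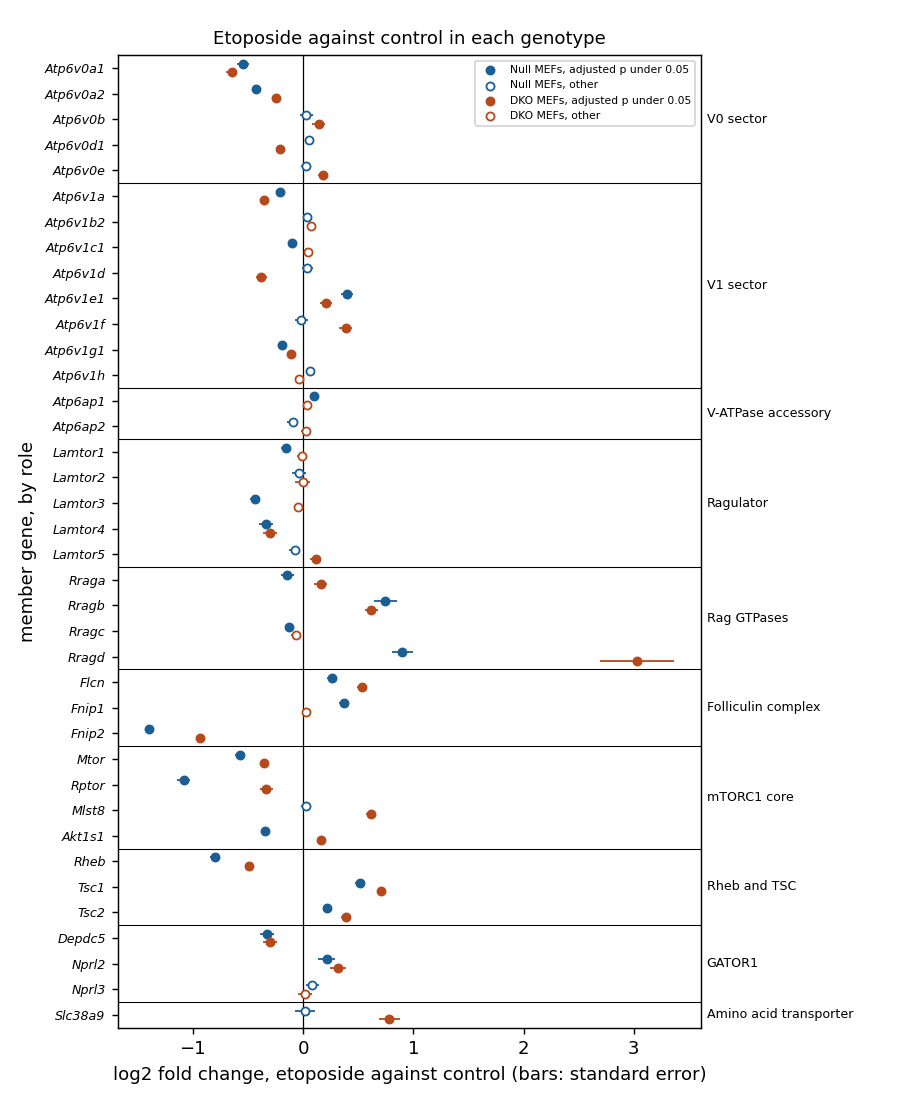
Log2 fold change of each tested member with etoposide (horizontal axis), by role (vertical axis), in Null MEFs (blue) and DKO MEFs (orange). Bars are SE and filled points have an adjusted p under 0.05, orange lies to the right of blue for all 4 mTORC1 genes and for Slc38a9, and Rragd in DKO MEFs stands apart at 3.03.

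Rheb, the GTPase that activates mTORC1, fell with etoposide in both lines and was higher in DKO MEFs. It was at 89.6, 87.1 and 87.5 CPM in untreated Null and 112, 110.2 and 118 CPM in untreated DKO libraries. Etoposide libraries were at 47.9, 52.4 and 51.6 CPM in Null and 82.6, 78.4 and 81.7 CPM in DKO libraries, and no groups of the same line or treatment overlapped. The log2 fold changes with etoposide were -0.80 (SE 0.041, adjusted p = 6.24e-12) in Null and -0.49 (SE 0.041, adjusted p = 7.19e-09) in DKO MEFs by edgeR, Benjamini-Hochberg adjusted, and between the lines 0.36 without and 0.68 with etoposide. Tsc1 and Tsc2, which form the complex that turns Rheb off, rose with etoposide in both lines. Tsc1 was at 60.1, 59.7 and 55.0 CPM in untreated Null and 49.0, 49.9 and 49.3 CPM in untreated DKO libraries. With etoposide its levels were 84.6, 82.8 and 82.0 CPM in Null and 81.9, 79.3 and 80.3 CPM in DKO libraries. DKO libraries were below Null libraries under both treatments, but only the untreated difference (-0.24) passed the threshold, and the treated one (-0.047) did not. The etoposide response of Tsc1 was 0.51 (SE 0.038, adjusted p = 1.01e-09) in Null and 0.70 (SE 0.038, adjusted p = 2.1e-11) in DKO MEFs in the same edgeR test.

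Tsc2, the subunit with the GTPase-activating domain, shares 7.2% of its exon length with Pkd1 on the opposite strand. It was at 87.1, 87.8 and 93.2 CPM in untreated Null and 59.1, 58.9 and 54.8 CPM in untreated DKO libraries. After etoposide the levels were 108, 104 and 99.9 CPM in Null and 75.9, 78.3 and 72.1 CPM in DKO libraries. Every DKO library was below every Null library, with log2 fold changes of -0.63 (SE 0.045, adjusted p = 9.23e-10) without and -0.47 (SE 0.044, adjusted p = 3.53e-08) with etoposide in the edgeR test. Etoposide raised Tsc2 by 0.22 in Null and 0.39 in DKO MEFs.

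GATOR1 and the transporter Slc38a9 regulate the Rags in response to amino acids. Nprl3, a GATOR1 subunit with 17.7% of its exon length shared with Mpg on the opposite strand, was at 20.4, 18.0 and 19.3 CPM in untreated Null and 14.2, 14.2 and 13.8 CPM in untreated DKO libraries. With etoposide it was at 21.9, 19.5 and 19.8 CPM in Null and 14.2, 14.4 and 14.2 CPM in DKO libraries. DKO libraries were below Null libraries under both treatments, with log2 fold changes of -0.45 and -0.52 (SE 0.061, adjusted p = 6.28e-07) by edgeR. Nprl2, its partner in GATOR1, was higher in DKO MEFs after etoposide by 0.23, a call lost without DKO etoposide replicate 3 (0.16). Depdc5, the largest subunit, was at 0.15 in that comparison, with an edgeR adjusted p of 0.0436, and was not past the threshold in 14 of 22 alternatives, among them those without Null control replicate 1 (0.15), DKO control replicate 1 (0.13), DKO control replicate 2 (0.13), Null etoposide replicate 1 (0.13), Null etoposide replicate 2 (0.16), Null etoposide replicate 3 (0.16), DKO etoposide replicate 1 (0.10) or DKO etoposide replicate 2 (0.099). With etoposide Depdc5 had log2 fold changes of -0.33 in Null and -0.30 in DKO MEFs, the latter -0.023 with library size scaling. Nprl2 rose by 0.21 in Null MEFs, lost without Null control replicate 2 (0.17) or Null etoposide replicate 3 (0.17), and by 0.32 in DKO MEFs.

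Slc38a9 (chromosome 13, 112660751 to 112738749), which senses arginine in the lysosome, was at 6.73, 6.04 and 5.76 CPM in untreated Null and 4.44, 4.21 and 4.56 CPM in untreated DKO libraries. With etoposide the levels were 6.37, 5.93 and 6.58 CPM in Null and 7.93, 6.76 and 7.93 CPM in DKO libraries. DKO libraries were the lowest of the 12 before treatment and the highest after it, with a rise of 0.78 (SE 0.097, adjusted p = 1.33e-06) in DKO MEFs by edgeR. The Null value was 0.018 and the interaction was 0.76 (SE 0.14, adjusted p = 0.000123) in the same edgeR test. Between the lines the log2 fold change was -0.50 before and 0.26 after etoposide, the latter not past the threshold with DESeq2, with its size factors in edgeR, with the stricter filter or without Null etoposide replicate 2 (0.21), DKO etoposide replicate 1 (0.22) or DKO etoposide replicate 3 (0.20).

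The other isoforms of V-ATPase subunits, 9 genes of which 5 could be tested, are mostly known from specialised tissues. Tcirg1, the a3 isoform used by osteoclasts and lysosomes, was at 78.6, 75.1 and 81.7 CPM in untreated and 203, 191 and 184 CPM in etoposide-treated Null libraries. In DKO libraries it was at 85.0, 88.7 and 87.8 CPM without and 86.9, 78.0 and 76.6 CPM with etoposide. The treated Null libraries stood above all others, with a log2 fold change of 1.29 (SE 0.049, adjusted p = 8.15e-14) beside -0.12 in DKO MEFs, which turned to 0.16 with library size scaling, and the interaction was -1.41 (SE 0.070, adjusted p = 2.4e-11) by edgeR's quasi-likelihood test, Benjamini-Hochberg adjusted. Per kb, Tcirg1 made up 48.7 ± 0.883% of the sum of Atp6v0a1, Atp6v0a2 and Tcirg1 in untreated and 76.3 ± 0.937% in treated Null MEFs (SD, n = 3 each), and 45.8 ± 0.357% and 49.7 ± 1.32% in DKO MEFs. Atp6v0e2, an isoform of the e subunit, was at 8.96 ± 0.460 CPM in untreated Null and 1.82 ± 0.151 CPM in untreated DKO MEFs (SD, n = 3 each). It was lower in DKO MEFs by 2.29 on the log2 scale and rose with etoposide in both (1.25 and 1.06). Atp6v0a4, the kidney isoform of the a subunit, was lower in DKO MEFs, at -1.26 without and -2.97 with etoposide. After etoposide all 5 of these genes were lower in DKO MEFs, as were 36.6% of all genes tested. Without it, where 33.4% of all genes were lower and 33.3% higher, 3 were lower and 1 higher, or 3 and 0 with library size scaling.

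Of 10 genes that assemble or regulate the pump, 6 were higher and 3 lower in DKO MEFs after etoposide, beside 37.5% and 36.6% of all genes. Without it (all genes 33.3% and 33.4%) 4 were higher and 4 lower, or 3 and 6 with library size scaling. Vma21, an assembly chaperone on the X chromosome, was higher in DKO MEFs by 0.73 and 0.97, and Tmem199, another assembly factor, had log2 fold changes of -0.94 and -0.34. Dmxl2, a subunit of the rabconnectin complex that helps V1 join V0, was higher by 1.15 after etoposide. Wdr7, another subunit of that complex, fell by 1.07 on the log2 scale in Null MEFs and was at -0.22 in DKO MEFs, or 0.058 and without a call with library size scaling, with an interaction of 0.86. With TMM, 3 of the 10 rose and 5 fell with etoposide in Null MEFs (all genes 42.3% and 37.2%). In DKO MEFs 6 rose and 4 fell (43.7% and 31.5%). The largest rise in Null MEFs was that of Tbc1d24, 1.49. Interactions were called above 0 for 7 genes and below 0 for 2 (29.6% and 24.4% of all genes). The lowest was that of Rnasek, -0.77. In the list of GATOR2, KICSTOR and amino acid sensors, 8 of 10 tested genes were higher and 2 lower in DKO MEFs after etoposide. The shares over all genes there were 37.5% and 36.6%. The counts were 6 and 2 with DESeq2's size factors in edgeR, and with library size scaling 7 and 2. Without etoposide 3 were higher and 4 lower, or 3 and 7 with library size scaling. Castor1, an arginine sensor of the cytosol, was at 4.41, 4.46 and 4.60 CPM in untreated and 19.4, 19.8 and 20.8 CPM in treated Null libraries. In DKO libraries it was at 8.48, 7.50 and 7.25 CPM without and 8.60, 9.68 and 9.14 CPM with etoposide. It was higher in DKO than in Null libraries before treatment and lower after it, and the interaction was -1.91 (SE 0.11, adjusted p = 1.57e-10) in the edgeR test. Mios, a GATOR2 subunit, fell in Null MEFs (-0.88) with an interaction of 0.93.

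Among 7 other genes of the TSC and mTOR complexes, 6 fell and 1 rose with etoposide in Null MEFs, where 37.2% of all genes fell and 42.3% rose. In DKO MEFs, where 31.5% of all genes fell and 43.7% rose, 4 fell and 0 rose, or 3 and 3 with library size scaling. Over the 7 genes 4 interactions were called above and 1 below 0, beside 29.6% and 24.4% of all genes. Deptor, an inhibitory partner of mTOR, fell in both (-1.23 and -1.86), with an interaction of -0.63. Rictor, which defines mTORC2, had an interaction of 0.76. Of 5 mTORC1 substrates, 2 rose and 3 fell in Null MEFs, and 2 rose and 2 fell in DKO MEFs (3 and 0 with library size scaling), so 5 of 5 and 4 of 5 were called beside 79.4% and 75.1% of all genes. Ulk1, the kinase that starts autophagy, rose most, by 2.49 in Null and 0.90 in DKO MEFs, with an interaction of -1.59 (SE 0.090, adjusted p = 1.22e-10) by edgeR.

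The list of 27 lysosomal hydrolases and membrane proteins places the pump beside its organelle. Without etoposide 19 of them were higher and 5 lower in DKO MEFs (median log2 fold change 0.30, or 0.18 with library size scaling), and after it 17 and 8 (median 0.21). The shares over all genes were 33.3% higher and 33.4% lower without and 37.5% and 36.6% with etoposide. With etoposide 13 rose and 6 fell in Null and 10 rose and 9 fell in DKO MEFs, or 20 and 1 in Null and 21 and 0 in DKO MEFs with library size scaling, beside 42.3% of all genes up and 37.2% down in Null and 43.7% and 31.5% in DKO MEFs with TMM. Lamp2, a membrane protein also encoded on the X chromosome, was higher by 1.23 and 1.04. The interaction was above 0 for 4 and below 0 for 13 of these genes (29.6% and 24.4% of all genes), or for 7 and 10 with library size scaling. The median was -0.10, or 0.0013 with library size scaling. The lowest values were those of the peptidase Tpp1 (-1.07) and the membrane protein Scarb2 (-1.05). Mitf, another factor of the TFEB and TFE3 family, was at 8.63, 9.14 and 8.94 CPM in untreated Null and 42.9, 42.5 and 44.4 CPM in untreated DKO libraries. With etoposide it was at 23.2, 22.6 and 22.3 CPM in Null and 14.6, 13.1 and 14.2 CPM in DKO libraries. It was higher in DKO libraries before treatment and lower after it, with an interaction of -2.98 (SE 0.075, adjusted p = 1.02e-14) by edgeR's quasi-likelihood test, Benjamini-Hochberg adjusted. Tfec, of the same family, was too low to be tested.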

How the data were processed

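The counts per gene were made by the authors before they were deposited: stranded, paired reads of ribosome-depleted total RNA were aligned to mm10 with HISAT2, and only uniquely mapped pairs were counted. The paper names HTSeq for the counting, and the file holds summary lines with HTSeq's names, whereas the submitters' notes name featureCounts, and the strand setting is not given. Those summary lines, which name no gene, entered neither the library sizes nor the tests. Pairs outside any feature were 22.5 to 24.2% of each library in untreated Null, 20.2 to 21.1% in untreated DKO, 25.1 to 27.3% in treated Null and 21.2 to 22.3% in treated DKO MEFs, and pairs without a unique alignment were 15.9 to 20.5% over all libraries. All 12 libraries were fitted in 1 model of 4 groups with edgeR 4.0.16 (quasi-likelihood, TMM, filterByExpr, Benjamini-Hochberg), after the code was tested on simulated data. Alternatives were DESeq2 1.42.0, limma 3.58.1 (limma-trend, as in the study), other scalings and filters, a replicate block, only the libraries of a comparison, removal of the abundant transcripts Rn45s, Rmrp and Rpph1, and leaving out each library. The members and lists were chosen with earlier results of these data known. Values per library are given for the 4 members with the largest called change in each direction of each comparison, Rragd, Flcn, Tfeb and Tfe3, and up to 2 genes per direction of other lists, and further genes were added after their values were seen. Exon lengths and overlaps come from GENCODE M21. Castor1 and Castor2 are listed in the count table under the symbols Gatsl3 and Gatsl2, and Bmt2 is not in it.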

Additional observations from a re-analysis of the deposited data

Results flagged for a closer look

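The etoposide response of 24 members differed between DKO and Null MEFs in the test of the interaction (edgeR, Benjamini-Hochberg adjusted over all genes tested), and each such difference in log2 response is given here with DKO minus Null as its direction. The share over all genes was 54%. In the V0 sector the differences were 0.19 for Atp6v0a2, -0.27 for Atp6v0d1 and 0.16 for Atp6v0e. In the V1 sector they were -0.15 for Atp6v1a, 0.14 for Atp6v1c1, -0.42 for Atp6v1d, -0.19 for Atp6v1e1 and 0.41 for Atp6v1f. For Ragulator they were 0.15 for Lamtor1, 0.39 for Lamtor3 and 0.19 for Lamtor5. Among the Rag GTPases Rraga had 0.30 and Rragd 2.13, the latter with 4 to 10 counts in the untreated DKO libraries. The folliculin complex had 0.27 for Flcn, -0.34 for Fnip1 and 0.46 for Fnip2. The subunits of mTORC1 had 0.22 for Mtor, 0.75 for Rptor, 0.59 for Mlst8 and 0.51 for Akt1s1. Upstream of mTORC1 the values were 0.31 for Rheb, 0.19 for Tsc1, 0.17 for Tsc2 and 0.76 for Slc38a9.

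Some of these calls were near the threshold. That of Atp6v0e held without Null control replicate 3 (0.18), Null etoposide replicate 3 (0.19) or DKO etoposide replicate 1 (0.19), and was lost without any other (0.11 to 0.16). That of Atp6v1c1 held without Null control replicate 3 (0.16), Null etoposide replicate 1 (0.15) or DKO etoposide replicate 1 (0.15), and was lost without any other (0.10 to 0.14). The call of Lamtor1 held without Null control replicate 2 (0.18), DKO control replicate 2 (0.16) or Null etoposide replicate 3 (0.18), and was lost without any other (0.11 to 0.15). For Lamtor5 it held without Null control replicate 3 (0.22), DKO control replicate 3 (0.19), Null etoposide replicate 3 (0.22) or DKO etoposide replicate 1 (0.22), and was lost without any other (0.13 to 0.19). For Tsc2 it held without Null control replicate 1 (0.18), Null control replicate 2 (0.18), Null etoposide replicate 1 (0.19) or DKO etoposide replicate 3 (0.19), and was lost without any other (0.13 to 0.17). For Atp6v1e1 it held without Null control replicate 1 (-0.22), DKO control replicate 2 (-0.24), Null etoposide replicate 1 (-0.25) or DKO etoposide replicate 3 (-0.22), and was lost without any other (-0.19 to -0.12). The other 18 stayed past the threshold without any 1 library.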

How the results depend on the processing

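Reversals of a member that was past the threshold in either fit came only with scaling by library size alone. With this scaling, the members called with etoposide in Null MEFs were 18 higher and 10 lower (9 and 16 with TMM), in DKO MEFs 27 and 4 (15 and 12 with TMM), and 3 interactions lay below 0 (5 with TMM). All genes then split into 7806 higher and 4396 lower in Null MEFs (6435 higher and 5656 lower with TMM), 9316 higher and 3004 lower in DKO MEFs (6645 higher and 4790 lower), 3977 higher and 6393 lower between untreated lines (5066 higher and 5091 lower) and 5734 above and 3055 below 0 for the interaction (4507 and 3719). The reversed directions were, with etoposide in Null MEFs Atp6v1c1 (0.071), Atp6v1f (0.15), Lamtor1 (0.0090), Rraga (0.026) and Rragc (0.044), in DKO MEFs Atp6v0a2 (0.031), Atp6v0d1 (0.065), Atp6v1g1 (0.16), Atp6v1h (0.24), Lamtor1 (0.26), Lamtor2 (0.27), Lamtor3 (0.23) and Rragc (0.21), and between untreated lines Atp6v0d1 (-0.095). Counts also changed their order elsewhere. In DKO MEFs 12 members rose and 13 fell with etoposide without DKO control replicate 2 (all genes 5916 and 4816). Without DKO control replicate 1 the counts were 12 and 12 (all genes 6056 and 4858). The stricter filter gave 16 members higher and 12 lower with etoposide in Null MEFs, and the fit without a filter 12 and 13 in DKO MEFs. All genes split into 5005 higher and 4850 lower of 12026 in the former fit. In the latter they split into 6901 and 5069 of 21587. The split of all genes for the interaction turned to 3900 above and 4323 below 0 with DESeq2 and to 3816 and 3870 with the stricter filter. Between treated lines 18 members were higher with DESeq2 and 19 with its size factors in edgeR (23 with TMM). All genes then split into 4944 higher and 5766 lower with DESeq2 and 5072 and 6096 with its size factors (5701 and 5569 with TMM). The cause was not tested.

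Leaving out 1 library gave 11871 to 12414 genes called with etoposide in Null MEFs, 10732 to 11689 in DKO MEFs, 9622 to 10267 between untreated and 10858 to 11388 between treated lines, and 7654 to 8026 for the interaction. Members called higher were then 7 to 9, 12 to 14, 15 to 18, 19 to 23 and 14 to 18, and lower 14 to 17, 12 to 13, 12 to 14, 8 to 9 and 4 to 6, in the same order. No such reversal came from leaving out 1 library. Of 456 member values per comparison, 444, 434, 438, 433 and 402 kept their direction and side of the threshold. With the replicate number as a block, 12111, 11416, 10172, 11274 and 8208 genes were called, and the calls lost were the interactions of Atp6v1c1, Atp6v1e1 and Lamtor1. Deviations from the group means correlated at -0.0320 to 0.0429 between libraries of the same number and at -0.0471 to 0.0476 between others, so the numbers were not taken as pairs. The older quasi-likelihood version, an alternative chosen after seeing the data, changed no direction of a called member and added calls for Akt1s1 and Lamtor5 between untreated lines. Limma-trend changed the calls of Lamtor5 between untreated lines and with etoposide in DKO MEFs, and no other member's call changed. Leaving out the abundant transcripts lost the calls of Atp6v0b (0.12) and Lamtor5 (0.089) with etoposide in DKO MEFs, of Atp6v1e1 (0.11) and Depdc5 (0.13) between treated lines, and of the interactions of Atp6v0e (0.14), Atp6v1c1 (0.12), Lamtor1 (0.13) and Tsc2 (0.15). CACGTG was in the windows of 10 members in the shorter window as well.

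Limits: each genotype is 1 line, shared cultures among replicates were not reported, and few counts of Rragd in untreated DKO MEFs limit its fold. The strand setting of the counting is not stated, so values of members with exons shared on the opposite strand are uncertain. RNA levels say nothing of protein, assembly of the pump, or mTORC1 activity, which were not analysed here.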
